A study of Mus musculus with 31 samples.

Results

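Transcripts of 47 genes for potassium channel subunits were followed in 31 whole-retina samples of mice that carried or lacked the nuclear receptor gene Rorb. The members are all genes whose symbol starts with Kcn followed by a family letter code (a, ab, b to h, j, k, ma, mb, n, q, s to v) and a number. Kcnj10, Kcnj14 and Kcne2 were left out by name, and a mean of at least 5 on the log2 scale over all arrays was required. Of 76 genes of the array that match the pattern, 47 met this rule, 26 lay below the level, and the 3 genes left out by name lay above it. The array measured 18193 genes in all, each by its brightest probe set.

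Each sample was RNA of both retinas of 1 mouse, hybridised to an Affymetrix mouse expression array. The mice were wild type (+/+), Rorb knockout (Rorb-/-), wild type with the CrxpNrl transgene (+/+;CrxpNrl), or knockout with the transgene (Rorb-/-;CrxpNrl). In CrxpNrl the promoter of Crx, a homeobox gene of photoreceptor precursors, drives the rod transcription factor gene Nrl. The promoter is known to be active in precursors of rods and cones, whereas the labels restrict the loss of Rorb to no cell type. The mice were 14 or 28 days old (P14 and P28), with 4 mice in each of the 8 groups except 3 in P28 +/+;CrxpNrl.

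Potassium channels set the resting potential of retinal neurons and glia and end their depolarisations. Voltage-gated pore subunits (Kv) open on depolarisation and are shaped by beta subunits and by silent subunits that form no channel alone, inward rectifiers (Kir) and two-pore channels hold the membrane near rest, and calcium- and sodium-activated channels follow ion entry. In retina, Kv1 and Kv3 subunits are known from inner retinal neurons, Kv8.2 (Kcnv2) from photoreceptors, Kir7.1 (Kcnj13) from the pigment epithelium, and Kir6.1 (Kcnj8) from pericytes of the vessels.

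The members' mean signals ran from 5.01 for Kcnk12 to 9.90 for Kcnma1, and a level of one probe set is not comparable with that of another. By symbol, 7 members are Kv1 pore subunits, 3 are Kv3, 3 are Kv4, 4 are silent Kv subunits and 1 is a KCNQ subunit. A further 5 belong to the EAG, ERG and ELK group, 3 are beta subunits, 7 are inward rectifiers and 6 are two-pore channels. The last 8 were grouped as calcium- and sodium-activated channels by symbol alone. Activation by either ion was not examined for each of them, Kcnu1 included. The difference between the highest and the lowest of the 8 group means was under 0.5 log2 in 9 members, 0.5 to 1 in 20 and above 1 in 18. It was widest for Kcnj9 (2.66), Kcnab3 (2.10), Kcna1 (2.00) and Kcnc2 (1.92).

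Just inside the level rule were Kcnk12 (5.01), Kcng2 (5.06), Kcnj5 (5.09), Kcnh7 (5.09), Kcnk4 (5.12) and Kcnk13 (5.22), and just outside were Kcns3 (4.96), Kcnh8 (4.83), Kcnj12 (4.76) and Kcnf1 (4.75). In 6 members at least 1 group mean was below 5 (Kcng2, Kcnj5, Kcnj6, Kcnj8, Kcnk12 and Kcnk4). Kcnj5 had group means from 4.26 to 5.77 and met the rule through the groups with Rorb, and its lowest level lay in the range of the arrays' lower quartiles (4.26 to 4.34). A signal above background was not shown for it without Rorb, so Kcnj5 stays in the counts of calls but is given below by its levels alone. Kcnj8 had group means of 4.77 to 5.24 without Rorb and 5.72 to 6.41 with it, so it met the rule largely through the groups with Rorb. The lowest means of Kcnj6 (4.97), Kcnk4 (4.92) and Kcnk12 (4.72) were also in groups without Rorb. Kcnk12 had group means of 4.72 to 5.155 without Rorb and 4.98 to 5.35 with it, so it too met the rule largely through the groups with Rorb. Sizes of differences of these 4 genes are limited by the low signal and by the rule itself. The other 41 members had every group mean at or above 5. Kcnj5 and Kcnj8 stand in every count of members lower without Rorb given below, so those counts hold members that the rule favours.

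Rorb itself stood at -1.15 ± 0.19 (P14) and -1.01 ± 0.19 (P28) in knockout against wild-type retinas; the labels do not say which part of the gene is deleted, so the probe set may lie outside it. Every difference given is on the log2 scale, as an estimate ± SE of a limma model of the 8 groups, adjusted p is Benjamini-Hochberg over 18193 genes, and a gene is called at adjusted p under 0.05. Nrl differed by -0.11 ± 0.40 with the transgene in +/+ and by 2.02 ± 0.40 in Rorb-/- at P14, and by -0.04 ± 0.43 and 1.30 ± 0.40 at P28. The summed signal of 10 rod genes was 16.18 to 16.29 in P14 +/+ and 14.60 to 14.93 in P14 Rorb-/-, that of 9 cone genes 13.72 to 13.82 and 15.50 to 15.71, that of 10 amacrine genes 13.39 to 13.57 and 11.22 to 11.84, and that of 10 ganglion cell genes 13.32 to 13.51 and 12.23 to 13.05 (log2 of the sum, range over mice). In whole retinas, fewer cells of a type and less RNA per cell cannot be told apart.

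Among the P28 Rorb-/-;CrxpNrl mice, replicates 3 and 4 stood apart from the other 2. Their rod lists summed to 13.67 and 14.40, against 15.77 and 15.49 in replicates 1 and 2, and their ganglion cell lists to 14.07 and 13.85, against 12.99 and 13.25. Their amacrine lists stood at 12.41 and 12.36, against 11.64 and 11.80. Array weights, lower for arrays that scatter more about the fit, were 0.33 and 0.44 for replicates 1 and 2, the lowest of all arrays. They were 0.93 and 1.42 for replicates 3 and 4, so replicates 3 and 4 are not taken as the faulty arrays. Counts that rest on this group, and most of the genes named in them, are given with all 4 mice and without replicates 3 and 4. A fit without replicates 1 and 2 together was not run.

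Loss of Rorb at P14 came mainly with lower potassium channel transcripts. Of the 47 members, 23 fell and 3 rose in Rorb-/- against +/+, while 13.9% of all genes fell and 16.0% rose. The 23 include Kcnj5, Kcnj8 and Kcnk12, which met the level rule through the groups with Rorb. Among the 12545 genes with a mean of at least 5, 17.1% fell and 21.2% rose. The median difference was -0.31 over the members and -0.01 over all genes. Blocking on the replicate number, although the labels do not say that equal numbers pair mice, gave 23 lower and 4 higher. With the 26 dimmer genes counted in, 25 of 73 fell and 6 rose. Of the members 8 were called in none of the 15 comparisons made (Kcna7, Kcnd1, Kcng2, Kcnh3, Kcnh7, Kcnj3, Kcnk13 and Kcnn4), with differences from -0.43 to 0.28. At P14 all 3 Kv3 genes and 5 of 7 Kv1 genes fell, as did 4 of 7 inward rectifiers, 3 of 5 genes of the EAG group, 2 of 4 silent subunits, 2 of 6 two-pore channels and 3 of 8 calcium- and sodium-activated channel genes.

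Kcna1, whose product Kv1.1 opens at low voltage and limits repetitive firing, read 8.10, 7.98, 8.15 and 7.97 in the P14 +/+ mice and 6.25, 6.66, 6.10 and 6.89 in the Rorb-/- mice. All knockout mice lay below all wild-type mice, and Kcna1 fell by 1.57 ± 0.20 (adjusted p = 2.85e-07), which is 2.98-fold on the linear scale. Kcna2 (Kv1.2), which forms channels together with Kv1.1, read 8.53, 8.60, 8.73 and 8.63 in +/+ and 6.81, 7.38, 7.26 and 7.95 in Rorb-/-, again without overlap. It fell by 1.27 ± 0.20 (adjusted p = 1.08e-05). Kcna5 (Kv1.5), a delayed rectifier subunit, read 10.02, 9.90, 10.01 and 9.93 in +/+ and 8.85, 9.11, 8.92 and 9.08 in Rorb-/-. The Kcna5 levels were tight within each group and did not overlap, and the gene fell by 0.97 ± 0.10 (adjusted p = 1.12e-08). Kcna6 (Kv1.6, -0.63 ± 0.11) and Kcna4 (Kv1.4, -0.60 ± 0.15), the rapidly inactivating member of the family, fell less. Kcna3 (Kv1.3), known from lymphocytes and microglia as well as neurons, read 5.55, 5.09, 5.27 and 5.30 in +/+ and 5.58, 5.46, 5.54 and 5.86 in Rorb-/-. Kcna3 was at 0.31 ± 0.14 (adjusted p = 0.101) and Kcna7 at -0.003 ± 0.10 (adjusted p = 0.988), neither past the threshold.

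**Figure D1:**
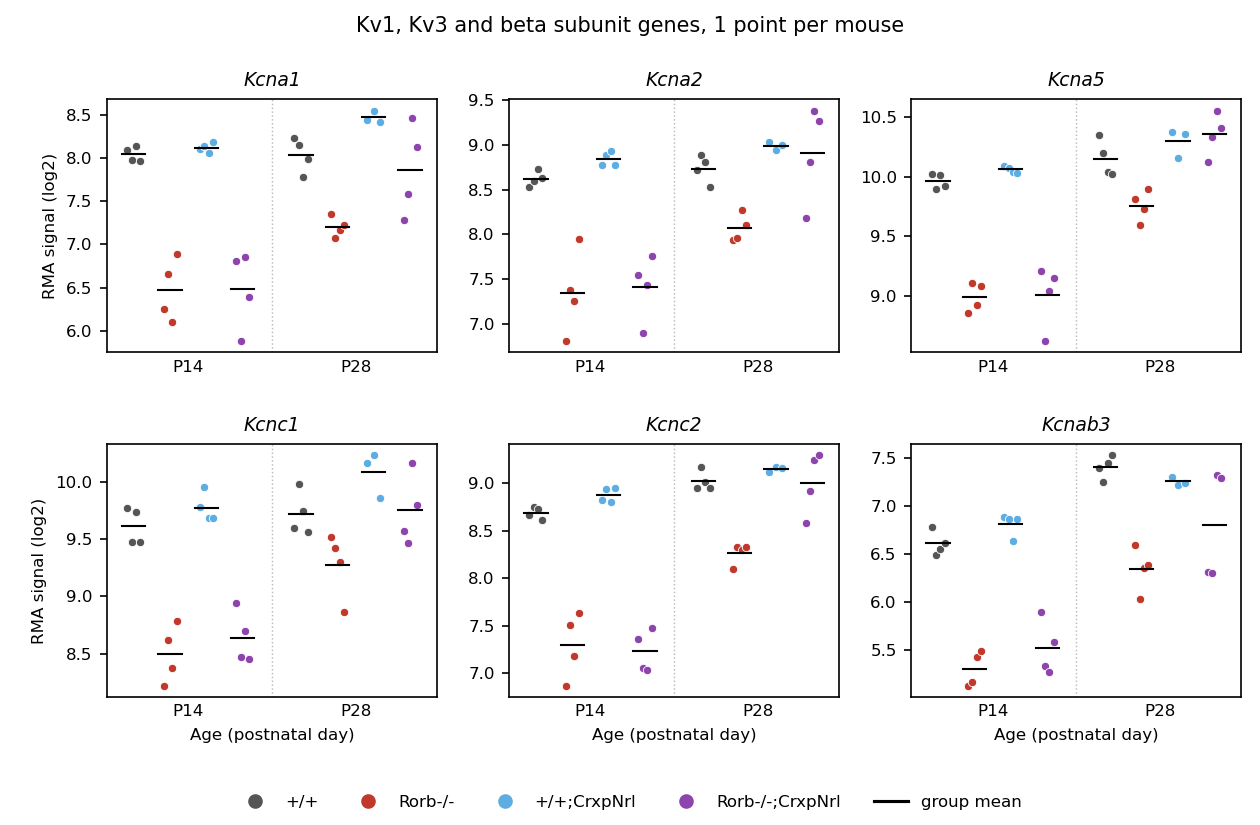
RMA signal (log2, y axis) of Kcna1, Kcna2, Kcna5, Kcnc1, Kcnc2 and Kcnab3 in every mouse, by age (x axis) and genotype (colour), with black bars for group means. At P14 every Rorb-/- and Rorb-/-;CrxpNrl mouse lay below every +/+ and +/+;CrxpNrl mouse for all 6 genes, and at P28 the Rorb-/-;CrxpNrl mice spread upward, for Kcna1 from 7.28 to 8.47.

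Kv3 subunits activate at high voltage and close fast, which lets neurons fire at high rates. Kcnc2 (Kv3.2) read 8.66, 8.74, 8.73 and 8.61 in P14 +/+ and 6.87, 7.51, 7.18 and 7.63 in Rorb-/-. The lowest wild-type mouse was more than 0.9 log2 above the highest knockout mouse, and Kcnc2 fell by 1.39 ± 0.13 (adjusted p = 2.49e-09), or 2.62-fold. Kcnc1 (Kv3.1) read 9.77, 9.47, 9.73 and 9.47 in +/+ and 8.22, 8.62, 8.38 and 8.78 in Rorb-/-, without overlap, and fell by 1.11 ± 0.15 (adjusted p = 1.01e-06). Its probe sets differed in size, the second brightest standing at -0.18. Kcnc4 (Kv3.4) was at -0.64 ± 0.17 and also fell. Kcnab3, the beta 3 subunit that binds Kv1 channels, read 6.78, 6.49, 6.55 and 6.62 in +/+ and 5.13, 5.16, 5.42 and 5.49 in Rorb-/-. No mouse of one group reached the other, and Kcnab3 fell by 1.31 ± 0.18 (adjusted p = 1.09e-06). The name of its brightest probe set marks it as shared by several transcripts, and the other one gave -0.78 (adjusted p = 7.28e-05). The mean of all probe sets gave -0.75 for Kcna2 and -0.50 for Kcnc1, and both kept their calls. The amacrine list, with 9 of 10 genes lower, and the ganglion list, with 7 of 10 lower and 1 higher, moved with these Kv1 and Kv3 genes, and their part in the falls was not tested.

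No Kv4 gene passed the test at P14, with Kcnd1 at -0.31, Kcnd3 at -0.14 and Kcnd2, the A-type subunit Kv4.2, at -0.004. Among silent subunits, Kcns2 (Kv9.2), which modifies other Kv channels, fell by 0.75 ± 0.14 (adjusted p = 8.39e-05). Kcnv2, whose product Kv8.2 joins other Kv subunits in photoreceptor inner segments, read 9.14, 8.83, 8.88 and 9.07 in +/+ and 8.28, 7.86, 8.08 and 8.43 in Rorb-/-. The groups did not overlap and Kcnv2 fell by 0.82 ± 0.29 (adjusted p = 0.0342), but the call was lost without +/+ replicate 1 (adjusted p = 0.0789) or 4 (0.0722) or Rorb-/- replicate 2 (0.101) or 3 (0.0695), at differences of -0.72 to -0.79. The rod list moved with it, 9 of 10 genes being lower, while 8 of 9 cone genes were higher, and their part in the Kcnv2 difference was not tested.

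Of genes of the EAG and ERG group, Kcnh1 (EAG1, -0.70 ± 0.16), Kcnh5 (EAG2, -0.62 ± 0.16) and Kcnh2 (ERG1, -0.45 ± 0.12) fell. Kcnq3, a subunit of the M current that restrains excitability, did not pass (0.16 ± 0.13, adjusted p = 0.421). Kcnj5 (GIRK4), one of the G protein-gated rectifiers that mediate slow inhibition, read 5.47, 5.69, 5.43 and 5.67 in +/+ and 4.43, 4.32, 4.09 and 4.47 in Rorb-/-. The Kcnj5 groups did not overlap. Kcnj6 (GIRK2) fell by 0.84 ± 0.12 (adjusted p = 3.85e-06). Kcnj9 (GIRK3) read 7.30, 7.23, 7.83 and 7.50 in +/+ and 8.09, 6.17, 6.17 and 6.95 in Rorb-/-, with overlap, and did not pass (-0.62 ± 0.52, adjusted p = 0.421). Kcnj3 (GIRK1) was at 0.06 and did not pass either.

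Kcnj8 encodes Kir6.1, the pore of the ATP-sensitive channel of pericytes and vascular smooth muscle. It read 6.28, 6.51, 6.48 and 6.37 in P14 +/+ and 5.02, 4.85, 5.21 and 5.07 in Rorb-/-, a gap of more than 1 log2 between the groups, and fell by 1.37 ± 0.12 (adjusted p = 1.98e-10), or 2.58-fold. Abcc9, the sulfonylurea receptor SUR2 that pairs with Kir6.1, fell by 1.53 ± 0.11 (adjusted p = 3e-12). Of 9 vessel and pericyte genes, 6 were lower and 1 higher, their sum being 11.76 to 11.96 in +/+ and 10.88 to 11.38 in Rorb-/-, and their part in these falls was not tested. Kcnj13 (Kir7.1), the inward rectifier of the apical membrane of the pigment epithelium, read 6.76, 6.66, 6.43 and 6.57 in +/+ and 5.79, 5.97, 5.43 and 5.77 in Rorb-/-. The groups did not overlap and Kcnj13 fell by 0.87 ± 0.27 (adjusted p = 0.0147), a call lost without Rorb-/- replicate 3 (adjusted p = 0.052). The pigment epithelium and melanocyte list, with 9 of 11 genes lower, stood at 12.52 to 13.04 in +/+ and 9.91 to 11.06 in Rorb-/-, and its part in the Kcnj13 difference was not tested.

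The remaining falls at P14 were smaller. Kcnk4 (TRAAK, a mechanosensitive two-pore channel) was at -0.44 ± 0.11 and Kcnk12 (THIK-2) at -0.37 ± 0.13. Kcnk12 met the level rule largely through the groups with Rorb, so the rule itself favours a fall of this gene. The small-conductance calcium-activated channel genes Kcnn2 (SK2, -0.61 ± 0.12) and Kcnn1 (SK1, -0.42 ± 0.13) fell, as did Kcnmb4 (-0.28 ± 0.10), a beta subunit of the large-conductance BK channel.

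The 3 members that rose without Rorb at P14 come from different families. Kcnab1, the beta 1 subunit that adds fast inactivation to Kv1 channels, read 9.24, 9.12, 9.01 and 8.97 in +/+ and 10.02, 9.53, 9.45 and 9.73 in Rorb-/-. All knockout mice were higher, and Kcnab1 rose by 0.60 ± 0.10 (adjusted p = 2.08e-05). Kcng4 (Kv6.4), a silent partner of other Kv subunits, read 6.21, 6.42, 6.70 and 6.66 in +/+ and 7.10, 7.25, 7.42 and 7.56 in Rorb-/-. It rose by 0.84 ± 0.14 (adjusted p = 3.72e-05), again without overlap. Kcnma1, the BK channel pore, read 9.81, 9.52, 9.71 and 9.41 in +/+ and 10.02, 10.20, 10.50 and 10.53 in Rorb-/-, and rose by 0.70 ± 0.18 (adjusted p = 0.003). Of its 5 probe sets 1 followed the brightest poorly over the 31 arrays (r = 0.17), at a difference of 0.35 here. Where a called member had a second probe set with a mean of at least 5, that probe set moved the same way in 11 of 11 members. Bipolar genes (5 of 9 higher, none lower) and Müller glia genes (4 of 8 higher, 1 lower) moved with these rises, and their part was not tested.

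The upstream sequence of 4 members is shown because 3 of them, Kcnc2, Kcna2 and Kcnj8, were among the largest falls without Rorb and Kcng4 was the largest rise at P14. RefSeq promoters (GRCm38.p6) matched 34 of the 47 members, and the 250 bases before the start are given on the strand of the gene, 5′ to 3′. Kcnc2 lies at chr10:112271023-112271272 on the + strand, 1 of 4 starts in the table, Kcna2 at chr3:107101317-107101566 on the + strand, Kcnj8 at chr6:142571615-142571864 on the - strand and Kcng4 at chr8:119635681-119635930 on the - strand. Capitals mark matches to 3 motifs searched on both strands, AGGTCA (core of the ROR receptor site), TAATCC (CRX) and TGCTGA (core of the NRL site).
Kcnc2: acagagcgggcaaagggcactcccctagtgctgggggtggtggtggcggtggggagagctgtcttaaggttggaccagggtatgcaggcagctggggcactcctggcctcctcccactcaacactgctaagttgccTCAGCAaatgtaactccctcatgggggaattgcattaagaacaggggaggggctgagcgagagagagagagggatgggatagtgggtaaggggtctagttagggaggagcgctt
Kcna2: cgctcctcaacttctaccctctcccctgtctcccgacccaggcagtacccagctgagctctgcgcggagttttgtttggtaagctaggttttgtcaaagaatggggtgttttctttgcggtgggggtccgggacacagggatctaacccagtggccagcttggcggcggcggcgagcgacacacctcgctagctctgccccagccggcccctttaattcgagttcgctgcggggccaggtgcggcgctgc
Kcnj8: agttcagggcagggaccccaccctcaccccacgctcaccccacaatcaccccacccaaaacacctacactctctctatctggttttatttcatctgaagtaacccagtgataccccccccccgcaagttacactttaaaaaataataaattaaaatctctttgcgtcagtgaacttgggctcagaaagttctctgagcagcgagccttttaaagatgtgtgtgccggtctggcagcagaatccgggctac
Kcng4: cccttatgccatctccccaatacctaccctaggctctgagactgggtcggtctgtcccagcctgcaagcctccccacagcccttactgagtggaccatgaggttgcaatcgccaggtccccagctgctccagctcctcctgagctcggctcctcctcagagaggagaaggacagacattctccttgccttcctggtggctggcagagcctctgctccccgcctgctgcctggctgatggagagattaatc
In these windows the search found 1 match, TGCTGA on the other strand of Kcnc2, 114 to 109 bases before the start. The Kcnc2 window printed is the only one of its 4 starts with a match, and the other starts held none. Over the 46 promoter entries of the members, AGGTCA stood in 1 (Kcnh1), TAATCC in 1 (Kcnj9) and TGCTGA in 4 (Kcnc2, Kcnk2, Kcnab2 and Kcnk4). Of 32851 mouse promoter windows of this length, 14.0% held AGGTCA, 6.25% TAATCC and 16.1% TGCTGA. The matches are letters in a window, not measured sites.

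At P28 most of the same members were still lower without Rorb. In Rorb-/- against +/+, 16 members fell and 5 rose, while 15.2% of all genes fell and 15.9% rose. The median was -0.10 over the members and -0.02 over all genes. All 16 that fell at P28 had fallen at P14, which is 69.6% of the P14 falls, and all 3 that rose at P14 rose at P28. The ages share no mice. Kcna4, Kcnc4, Kcnh1, Kcnh5, Kcnk12 and Kcnk4 fell at P14 and did not pass at P28, with P28 differences of -0.10, -0.08, -0.22, -0.38, -0.26 and -0.03.

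Kcna1 at P28 read 8.23, 8.15, 7.79 and 7.997 in +/+ and 7.35, 7.07, 7.17 and 7.23 in Rorb-/-, without overlap, and fell by 0.84 ± 0.20 (adjusted p = 0.00133). Kcna2 read 8.72, 8.89, 8.81 and 8.53 against 7.93, 7.96, 8.27 and 8.11, and fell by 0.67 ± 0.20 (adjusted p = 0.0108). Kcna5 read 10.35, 10.20, 10.04 and 10.02 against 9.81, 9.59, 9.73 and 9.89, and fell by 0.40 ± 0.10 (adjusted p = 0.00317). For all 3 Kv1 genes every knockout mouse was still below every wild-type mouse, at a smaller distance than at P14. The amacrine list had 9 of 10 genes lower and 1 higher at P28, with a median of -1.74 against -1.75 at P14. The ganglion list had 3 of 10 lower and 0 higher, and the part of both lists was not tested. Tested for a change between P14 and P28, the effect of Rorb loss passed for Kcna5 (0.58 ± 0.14, adjusted p = 0.0256), a call lost without any of 7 single mice (adjusted p = 0.0507 to 0.0671), and not for Kcna1 (0.73 ± 0.28, adjusted p = 0.179) or Kcna2 (0.60 ± 0.28, adjusted p = 0.309).

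Kcnc2 at P28 read 8.95, 9.17, 9.02 and 8.95 in +/+ and 8.10, 8.33, 8.30 and 8.33 in Rorb-/-, and fell by 0.76 ± 0.13 (adjusted p = 5.29e-05). Kcnc1 read 9.60, 9.98, 9.74 and 9.56 against 9.52, 9.42, 9.30 and 8.87, groups that nearly touched, and fell by 0.44 ± 0.15 (adjusted p = 0.0241). Of 9 called members with a second probe set with a mean of at least 5, Kcnc1 had one of the opposite sign (0.41). Averaging the Kcnc1 probe sets ended the call (-0.12, adjusted p = 0.314), as did leaving out +/+ replicate 2 (-0.36) or Rorb-/- replicate 4 (-0.31). Kcnab3 read 7.39, 7.24, 7.44 and 7.53 against 6.59, 6.03, 6.35 and 6.39, without overlap, and fell by 1.06 ± 0.18 (adjusted p = 2.28e-05). Its Rorb effect at P28 minus that at P14 was 0.25 ± 0.25 (adjusted p = 0.738), not past the threshold.

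Kcnj8 at P28 read 5.93, 5.94, 5.83 and 5.97 in +/+ and 4.99, 5.22, 5.16 and 4.57 in Rorb-/-, and fell by 0.93 ± 0.12 (adjusted p = 2.34e-07). The Rorb-/- mean of 4.98 lay below the level of 5, which limits the size of this fall. At this age the summed vessel and pericyte genes overlapped between the groups, at 10.99 to 11.02 and 10.87 to 11.07, with 4 of 9 lower and 2 higher. Kcnj5 read 5.80, 5.79, 5.61 and 5.47 against 4.16, 4.41, 4.66 and 4.76, again without overlap. Kcnv2 read 9.45, 8.93, 9.13 and 9.31 against 8.49, 8.37, 8.29 and 8.57, and fell by 0.78 ± 0.29 (adjusted p = 0.044). The Kcnv2 groups did not overlap, but its call was lost on leaving out any single mouse except +/+ replicate 2, at differences of -0.70 to -0.82. Rod genes were lower in 8 of 10 cases in the same comparison, and their part was not tested.

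Upward, Kcnab1 at P28 read 9.16, 9.17, 9.05 and 9.17 in +/+ and 10.13, 10.18, 10.19 and 10.06 in Rorb-/-, and rose by 1.002 ± 0.10 (adjusted p = 3.02e-09). Kcng4 read 5.99, 6.21, 6.38 and 5.96 against 7.16, 6.92, 7.26 and 7.19, and rose by 0.996 ± 0.14 (adjusted p = 2.76e-06). Both rises were seen in all 4 knockout mice, and Kcnma1 (0.92 ± 0.18) and Kcnk3 (the acid-sensitive two-pore channel TASK-1, 0.48 ± 0.16) rose too. Kcnj13 read 5.68, 4.86, 6.70 and 5.36 in +/+ and 6.75, 7.13, 6.11 and 5.74 in Rorb-/-, with overlap, and rose by 0.78 ± 0.27 (adjusted p = 0.0271). That call was lost without +/+ replicate 2 (0.52) or 4 (0.69), without Rorb-/- replicate 1 (0.68) or 2 (0.55), and when fitted on those 2 groups alone (adjusted p = 0.158). The change of sign of Kcnj13 between the ages passed its own test (1.65 ± 0.38, adjusted p = 0.015), a call lost when only those 4 groups were fitted (adjusted p = 0.0568). The pigment epithelium list changed with it, from 9 of 11 genes lower at P14 to 3 of 11 higher at P28, with 8 of 11 passing the same test of the ages upward and a range of 10.04 to 12.50 over the P28 +/+ mice, and its part was not tested.

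**Figure D2:**
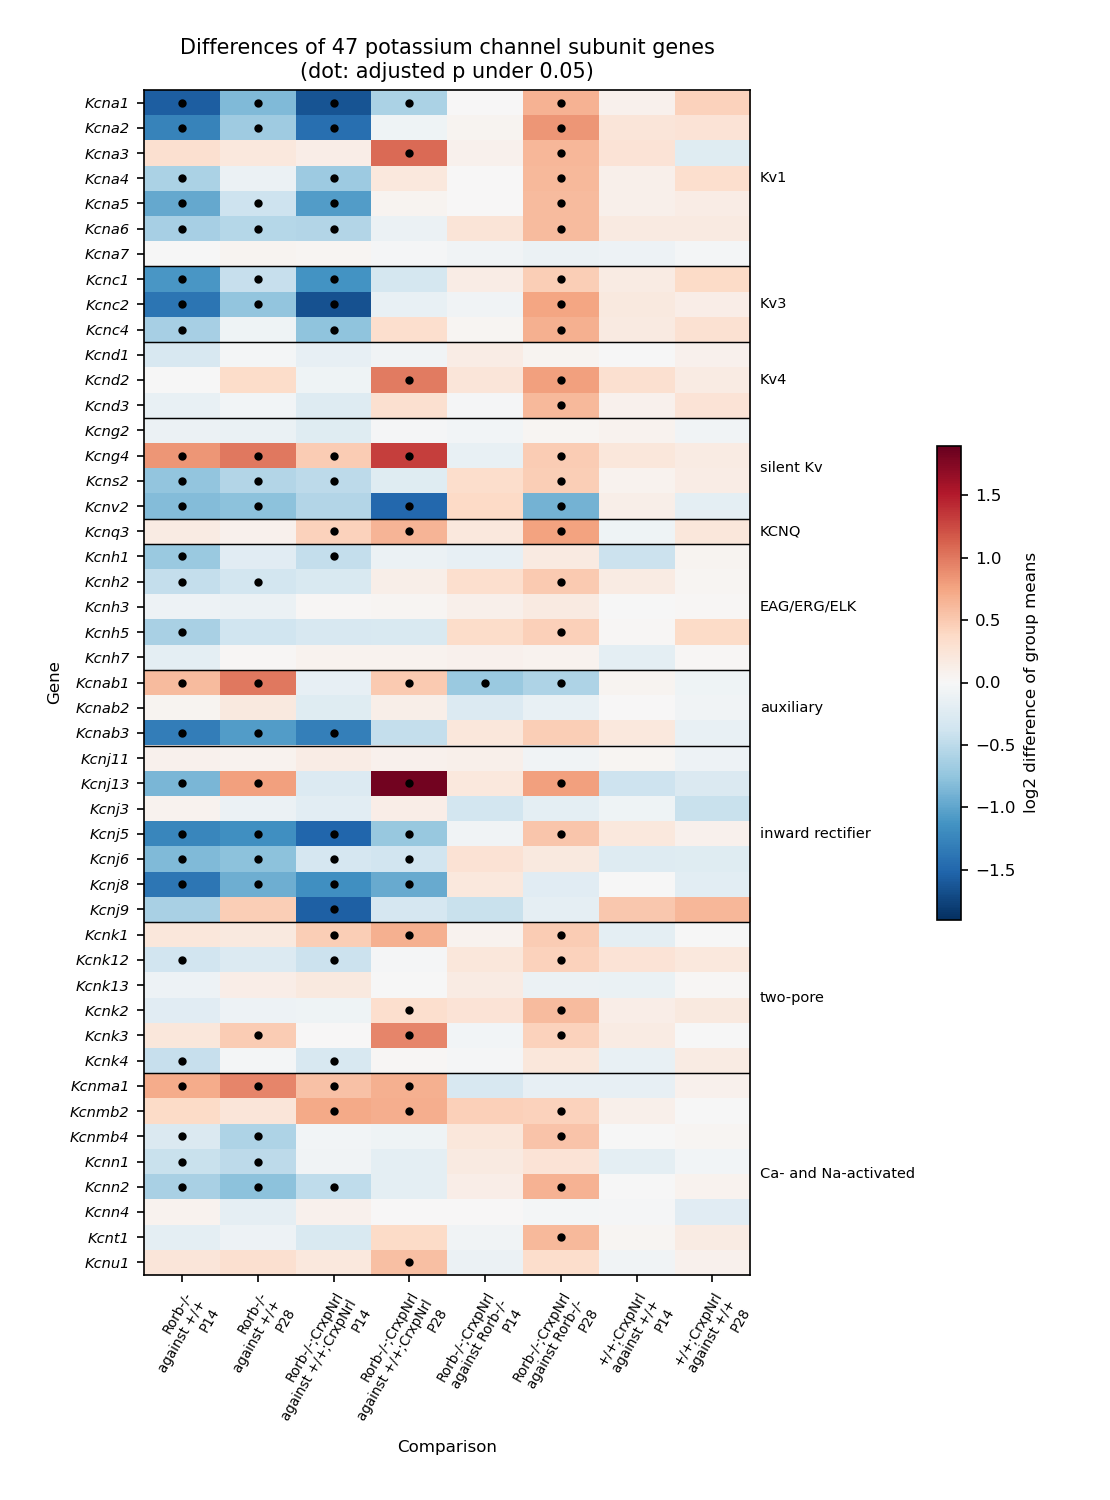
Log2 differences of group means (colour, red higher and blue lower) for the 47 members (rows, grouped by family) in the 8 comparisons of genotypes (columns), with a dot at adjusted p under 0.05. Blue with dots fills the Kv1 and Kv3 rows other than Kcna3 and Kcna7 in Rorb-/- against +/+ at P14, the last 2 columns hold no dot, and red with dots fills those rows except Kcna7 in Rorb-/-;CrxpNrl against Rorb-/- at P28.

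In +/+ retinas the transgene changed none of the 47 members by the test, at either age. The limma fit called 0 members at P14, where 0.0165% of all genes rose and 0.11% fell, and 0 at P28, where 0.022% rose and 0.198% fell. At unadjusted p under 0.05 there were 2 members at P14 and 4 at P28. Blocking on the replicate number at P28, where pairing is likewise not stated, also gave 0. The same retinas showed lower cone genes, 7 of 9 at P14 and 9 of 9 at P28, and 0 of 10 rod genes called. Kcnv2, which both photoreceptor types are known to express, read 9.28, 8.74, 9.14 and 9.24 in P14 +/+;CrxpNrl, against 8.83 to 9.14 in +/+, and differed by 0.12 ± 0.29 (adjusted p = 0.976). At P28 it read 9.37, 8.63 and 9.07, against 8.93 to 9.45, and differed by -0.18 ± 0.32 (adjusted p = 0.929). The largest differences, none past the threshold, were those of Kcnj9 (0.51 ± 0.52 at P14 and 0.62 ± 0.56 at P28), Kcna1 (0.43 ± 0.21 at P28), Kcnj3 (-0.43 ± 0.14 at P28) and Kcnh1 (-0.41 ± 0.16 at P14).

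In Rorb-/- retinas at P14 the transgene lowered Kcnab1 and called no other member, that is, 0 rose and 1 fell, while 2.05% of all genes rose and 3.25% fell. Kcnab1 read 8.81, 9.21, 9.10 and 8.81 in Rorb-/-;CrxpNrl against 9.45 to 10.02 in Rorb-/-, and fell by 0.70 ± 0.10 (adjusted p = 1.47e-05). All transgenic mice lay below all knockout mice without it and overlapped the +/+ range of 8.97 to 9.24. The effect of the transgene on Kcnab1 differed between the Rorb genotypes (-0.75 ± 0.14, adjusted p = 0.00222). In the same comparison 9 of 9 cone genes fell and 6 of 10 rod genes rose, and their part was not tested. No Kv1 or Kv3 gene passed the test. Kcna1 read 6.81, 5.88, 6.85 and 6.39 and differed by 0.01 ± 0.20 (adjusted p = 0.993). Kcnc2 read 7.36, 7.05, 7.03 and 7.47 and differed by -0.07 ± 0.13 (adjusted p = 0.868).

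With the transgene on both sides, Kv1, Kv3 and inward rectifier genes were again lower without Rorb at P14, with falls in 5 of 7, 3 of 3 and 4 of 7. Of the calcium- and sodium-activated channel genes 2 rose and 1 fell, and of the EAG group 1 of 5 fell. Of the members 18 fell and 5 rose in Rorb-/-;CrxpNrl against +/+;CrxpNrl, while 13.8% of all genes fell and 16.3% rose. This comparison shares no mouse with Rorb-/- against +/+ at P14, and 17 of the 18 falls (94.4%) were among the 23 falls there (73.9%). Kcna1 read 8.11, 8.14, 8.06 and 8.19 in +/+;CrxpNrl and fell by 1.64 ± 0.20 (adjusted p = 1.54e-07). Kcnc2 read 8.82, 8.94, 8.80 and 8.95 there and fell by 1.65 ± 0.13 (adjusted p = 1.18e-10). Kcna2 read 8.78, 8.89, 8.93 and 8.78 in +/+;CrxpNrl and 7.54, 6.89, 7.44 and 7.76 in Rorb-/-;CrxpNrl, and fell by 1.44 ± 0.20 (adjusted p = 1.84e-06). The distance between the groups was more than 1 log2 for all 3 genes. Amacrine genes were lower in 9 of 10 and ganglion cell genes in 4 of 10 cases, with 1 ganglion cell gene higher, and their part was not tested.

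Kcna5 at P14 read 10.09, 10.07, 10.04 and 10.03 in +/+;CrxpNrl and 9.21, 8.62, 9.04 and 9.14 in Rorb-/-;CrxpNrl, and fell by 1.06 ± 0.10 (adjusted p = 2.96e-09). Kcnc1 read 9.78, 9.95, 9.68 and 9.68 against 8.94, 8.47, 8.70 and 8.46, and fell by 1.13 ± 0.15 (adjusted p = 8.05e-07). Kcnab3 read 6.88, 6.87, 6.63 and 6.87 against 5.89, 5.33, 5.27 and 5.58, and fell by 1.29 ± 0.18 (adjusted p = 1.45e-06). In all 3 genes every mouse without Rorb was below every mouse with it. Kcna3 read 5.62, 5.60, 5.46 and 5.56 against 5.74, 5.46, 5.85 and 5.69 and differed by 0.12 ± 0.14 (adjusted p = 0.573). Kcnab1 read 9.18, 9.11, 9.18 and 9.07 in +/+;CrxpNrl and differed by -0.15 ± 0.10 (adjusted p = 0.283). Kcnv2, at 8.72, 8.31, 8.42 and 8.72 in Rorb-/-;CrxpNrl, differed by -0.56 ± 0.29 (adjusted p = 0.168).

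Among the inward rectifiers, Kcnj5 at P14 read 5.86, 5.92, 5.71 and 5.58 in +/+;CrxpNrl and 4.17, 3.99, 4.44 and 4.43 in Rorb-/-;CrxpNrl, without overlap. Kcnj13 read 5.76, 6.26, 6.68 and 6.15 against 6.16, 5.88, 6.02 and 5.71 and differed by -0.27 ± 0.27 (adjusted p = 0.527). Kcnj8 read 6.31, 6.39, 6.55 and 6.38 against 5.37, 5.26, 5.38 and 4.93, and fell by 1.17 ± 0.12 (adjusted p = 5.54e-09). Kcnj9 read 8.69, 7.10, 7.35 and 8.78 against 7.34, 5.31, 6.62 and 6.45, with overlap, and fell by 1.55 ± 0.52 (adjusted p = 0.0226). The call of Kcnj9 was lost without +/+;CrxpNrl replicate 1 (-1.31) or 4 (-1.28) or Rorb-/-;CrxpNrl replicate 2 (-1.18). Kcng4 read 6.48, 6.71, 7.04 and 6.64 against 7.11, 6.97, 7.38 and 7.35, and rose by 0.48 ± 0.14 (adjusted p = 0.0111), a call lost without +/+;CrxpNrl replicate 1 (adjusted p = 0.0527). Kcnmb2 (a BK beta subunit, 0.72 ± 0.15), Kcnma1 (0.55 ± 0.18), Kcnk1 (TWIK-1, 0.46 ± 0.17) and Kcnq3 (0.44 ± 0.13) rose as well.

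**Figure D3:**
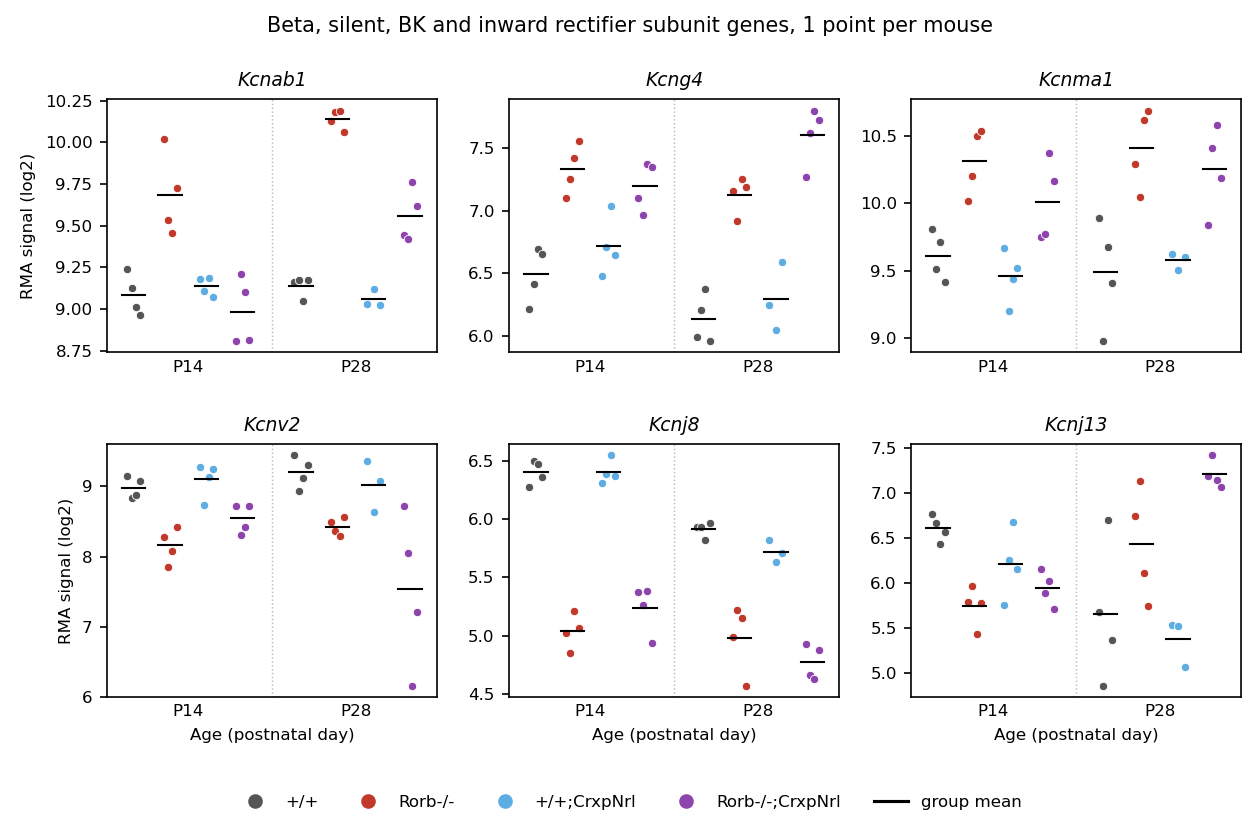
RMA signal (log2, y axis) of Kcnab1, Kcng4, Kcnma1, Kcnv2, Kcnj8 and Kcnj13 in every mouse, by age (x axis) and genotype (colour), with black bars for group means. Kcnab1 was high in the Rorb-/- mice and lower with the transgene, Kcng4 was higher in every mouse without Rorb at P28, and Kcnv2 spread from 6.16 to 8.72 in P28 Rorb-/-;CrxpNrl.

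At P28 the knockout retinas with the transgene had higher potassium channel transcripts than those without it. Of the 47 members 26 rose and 2 fell in Rorb-/-;CrxpNrl against Rorb-/-, while 11.7% of all genes rose and 7.47% fell, and the median was 0.45 over the members and 0.01 over all genes. The count rests in part on replicates 3 and 4: without both, 10 rose and 1 fell, without replicate 3 alone 18 were called and without replicate 4 alone 17. Fitted on the 2 compared groups alone, 14 were called. Rises took in 6 of 7 Kv1 genes, 3 of 3 Kv3, 2 of 3 Kv4, 4 of 6 two-pore and 4 of 8 calcium- and sodium-activated channel genes.

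Kcna5 in P28 Rorb-/-;CrxpNrl read 10.12, 10.33, 10.55 and 10.41, all above the Rorb-/- mice, and rose by 0.60 ± 0.10 (adjusted p = 9.12e-05). Without replicates 3 and 4 it stood at 0.47 and kept its call (adjusted p = 0.0118). Kcnc2 read 8.58, 8.92, 9.24 and 9.29, all above the Rorb-/- mice, and rose by 0.74 ± 0.13 (adjusted p = 0.000188). Without the 2 mice it stood at 0.48 (adjusted p = 0.0359). For both genes the knockout mice with and without the transgene did not overlap.

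Kcna1 read 7.28, 7.59, 8.47 and 8.13, with replicate 1 inside the Rorb-/- range of 7.07 to 7.35, and rose by 0.67 ± 0.20 (adjusted p = 0.0157). Without the 2 mice it was at 0.23 (adjusted p = 0.579). Kcna2 read 8.18, 8.81, 9.39 and 9.27, with replicate 1 again inside the knockout range, and rose by 0.84 ± 0.20 (adjusted p = 0.00286). Without the 2 mice it was at 0.43 (adjusted p = 0.25). Kcnc1 read 9.57, 9.47, 10.17 and 9.80 and rose by 0.47 ± 0.15 (adjusted p = 0.0247), and was at 0.24 (adjusted p = 0.466) without them. Kcna3 read 6.63, 6.25, 6.73 and 6.73, against 6.40, 5.85, 5.63 and 5.92 in Rorb-/-, and rose by 0.63 ± 0.14 (adjusted p = 0.00131). It was at 0.49 (adjusted p = 0.0732) without the 2 mice. These 4 genes were called with all 4 mice and not without the 2. Fitted on the 2 compared groups alone, Kcna1 (adjusted p = 0.0961), Kcnc1 (0.126) and Kcna3 (0.0503) were not called either.

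The ganglion list, with 9 of 10 genes higher and 1 lower, and the amacrine list, with 3 of 10 higher, moved with the same comparison, and their part was not tested.

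Of further rises at P28 with the transgene, Kcnd2 (Kv4.2, 0.79 ± 0.14), Kcnq3 (0.77 ± 0.13), Kcnc4 (0.68 ± 0.17), Kcnn2 (0.66 ± 0.12), Kcnt1 (the sodium-activated channel Slack, 0.62 ± 0.14) and Kcna4 (0.62 ± 0.15) were among the larger. Without the 2 mice Kcnd2 (0.47, adjusted p = 0.0392), Kcnq3 (0.55, 0.0112) and Kcnn2 (0.46, 0.0246) kept the call, and Kcnc4 (0.35, 0.281), Kcnt1 (0.27, 0.248) and Kcna4 (0.49, 0.0959) lost it. Kcng4 read 7.27, 7.62, 7.80 and 7.73 and rose by 0.48 ± 0.14 (adjusted p = 0.0185), and stood at 0.32 (adjusted p = 0.324) without the 2 mice. Kcnj5 read 4.65, 4.91, 5.22 and 5.31, against 4.16 to 4.76 in Rorb-/-. Kcnj13 read 7.19, 7.42, 7.14 and 7.07 and rose by 0.77 ± 0.27 (adjusted p = 0.0434), a call lost without any of 6 single mice, without replicates 3 and 4 (0.88, adjusted p = 0.123), with every array shifted to the same median (adjusted p = 0.0598) and with quantile normalization (adjusted p = 0.0634).

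The members that fell at P28 with the transgene were Kcnab1 and Kcnv2. Kcnab1 read 9.44, 9.42, 9.76 and 9.62, all below the Rorb-/- mice, and fell by 0.58 ± 0.10 (adjusted p = 8.87e-05). Without replicates 3 and 4 it stood at -0.71 (adjusted p = 0.000115), a larger difference than with them. Kcnv2 read 8.72, 8.05, 6.16 and 7.20, and fell by 0.89 ± 0.29 (adjusted p = 0.0302). Without replicates 3 and 4 Kcnv2 was at -0.04 (adjusted p = 0.944), and those 2 mice also had the lowest rod lists of all arrays. Over all 4 mice of the group, 5 of 10 rod genes were higher and 2 lower in the same comparison, at a median of 1.27. The part of rod transcripts in the Kcnv2 difference was not tested.

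**Figure D4:**
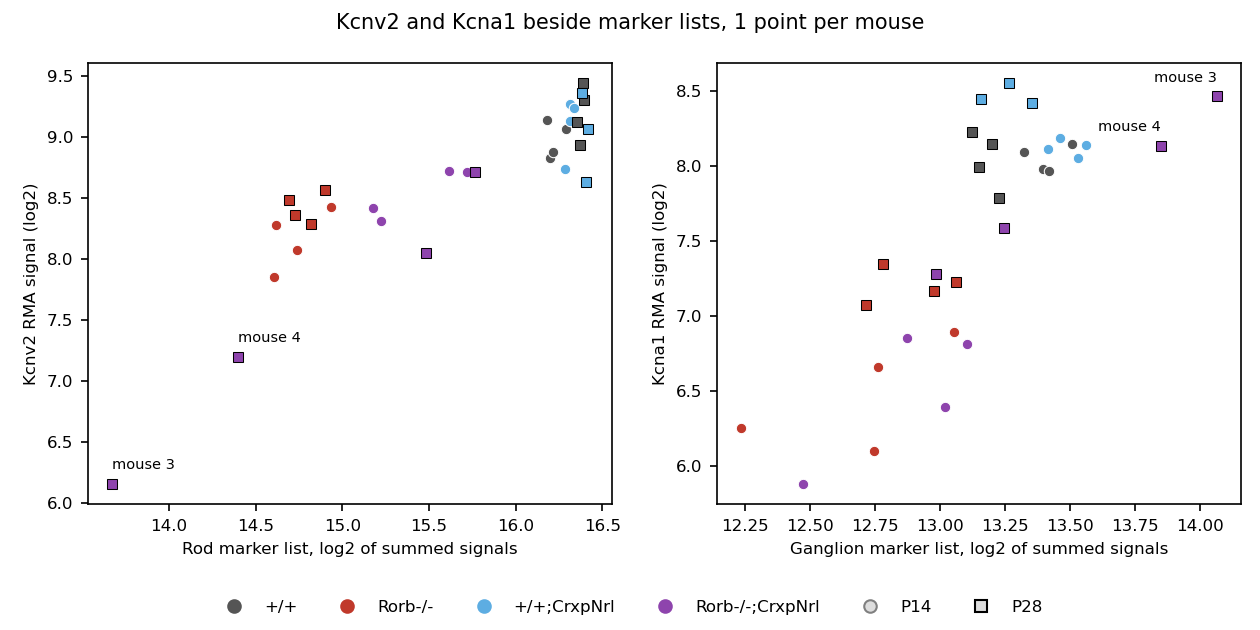
Left, Kcnv2 signal (log2, y axis) against the log2 of the summed signals of 10 rod genes (x axis), and right, Kcna1 signal against the same for 10 ganglion cell genes, with 1 point per mouse, colour for genotype, circles for P14 and squares for P28. The P28 Rorb-/-;CrxpNrl mice 3 and 4 have the lowest rod sums (13.67 and 14.40) with the lowest Kcnv2 (6.16 and 7.20), and the highest ganglion sums (14.07 and 13.85).

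Set against +/+;CrxpNrl at P28, the knockout with the transgene showed a mixed picture, with 12 members higher and 5 lower, while 20.7% of all genes rose and 15.9% fell. The split of the members was 11 higher and 10 lower with every array shifted to the same median, 12 and 7 with quantile normalization, and 8 and 8 without replicates 3 and 4. The median was 0.02 over the members, and their shares of 25.5% higher and 10.6% lower were near those of all genes. All 5 falls were among the 16 of Rorb-/- against +/+ at P28 (31.2%), and all 5 rises there were among these 12 (41.7%), and these comparisons share no mice. Kcnc1, Kcnc2, Kcna2 and Kcna5, lower in Rorb-/- against +/+, were at -0.33, -0.14, -0.08 and 0.06 here and did not pass. The amacrine list had 9 of 10 genes lower and 1 higher here, at a median of -1.4. The ganglion list had 2 of 10 higher and 0 lower, and the part of both lists was not tested. In +/+;CrxpNrl Kcnc1 read 10.17, 10.23 and 9.86 and Kcnc2 read 9.12, 9.17 and 9.16. Kcna2 read 9.03, 8.94 and 8.999 and Kcna5 read 10.37, 10.16 and 10.36 there. Rorb-/-;CrxpNrl replicates 1 and 2 read 9.57 and 9.47 for Kcnc1, 8.58 and 8.92 for Kcnc2, and 8.18 and 8.81 for Kcna2. All of these lay below every +/+;CrxpNrl mouse. Replicates 3 and 4 read 10.17 and 9.80, 9.24 and 9.29, and 9.39 and 9.27 for the same genes. For Kcna5 replicates 1 and 2 read 10.12 and 10.33, and replicates 3 and 4 read 10.55 and 10.41. Kcnab3 read 7.30, 7.22 and 7.24 in +/+;CrxpNrl and 6.31, 6.30, 7.32 and 7.29 in Rorb-/-;CrxpNrl, and differed by -0.45 ± 0.19 (adjusted p = 0.0691).

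Kcnj13 read 5.53, 5.51 and 5.06 in the 3 P28 +/+;CrxpNrl mice, all below the 4 Rorb-/-;CrxpNrl mice, and rose by 1.84 ± 0.29 (adjusted p = 9.28e-06). The pigment epithelium list stood at 10.56 to 11.18 and 11.48 to 12.996 in these groups, with 5 of 11 genes higher, and its part was not tested. Kcnj13 stood at 1.94 without replicates 3 and 4. Kcng4 read 6.25, 6.05 and 6.59 and rose by 1.31 ± 0.16 (adjusted p = 9.26e-08), or stood at 1.15 without the 2 mice. Kcna3 read 5.51, 5.30 and 5.71 and rose by 1.08 ± 0.15 (adjusted p = 1.16e-06), and stood at 0.93 without replicates 3 and 4. All 9 microglia genes were higher in this comparison, their sum being 9.17 to 9.25 in +/+;CrxpNrl and 10.44 to 10.77 in Rorb-/-;CrxpNrl. Without Rorb at P14, with or without the transgene, 8 of 9 were higher and Kcna3 did not pass. With the transgene in Rorb-/- at P28, 1 of 9 was higher and Kcna3 rose. With age in +/+, 7 of 9 fell and Kcna3 rose. The part of microglia genes in the Kcna3 differences was not tested. Kcnab1 read 9.03, 9.12 and 9.02 and rose by 0.50 ± 0.11 (adjusted p = 0.000391), or stood at 0.37 (adjusted p = 0.0237) without the 2 mice.

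Kcnd2 (0.98 ± 0.15), Kcnk3 (0.93 ± 0.17), Kcnmb2 (0.68 ± 0.16), Kcnma1 (0.68 ± 0.19), Kcnk1 (0.67 ± 0.19) and Kcnq3 (0.64 ± 0.14) rose too. Of these Kcnk1 (0.60, adjusted p = 0.0544) and Kcnma1 (0.55, 0.081) lost the call without the 2 mice and the other 4 kept it. Downward, Kcnv2 fell by 1.49 ± 0.32 (adjusted p = 0.000383), or by 0.64 without replicates 3 and 4 (adjusted p = 0.0213). The call was lost when only the 2 compared groups were fitted (adjusted p = 0.057) and with the replicate block (adjusted p = 0.0799). In the same comparison 9 of 10 rod genes were lower, and their part was not tested. Kcnj8 read 5.82, 5.64 and 5.71 in +/+;CrxpNrl and 4.93, 4.66, 4.63 and 4.87 in Rorb-/-;CrxpNrl, and fell by 0.95 ± 0.13 (adjusted p = 5.46e-07), or stood at -0.93 without the 2 mice. Of 9 vessel and pericyte genes 2 were higher and 3 lower, at sums of 10.78 to 10.95 and 11.30 to 11.53, and their part was not tested. Kcnj5 read 5.54, 5.75 and 5.95 in +/+;CrxpNrl, all above the Rorb-/-;CrxpNrl mice. Kcna1, at 8.45, 8.55 and 8.42 in +/+;CrxpNrl, fell by 0.61 ± 0.21 (adjusted p = 0.026), or by 1.04 without replicates 3 and 4, and its call was lost without +/+;CrxpNrl replicate 1 or 2 or Rorb-/-;CrxpNrl replicate 1 or 2 (-0.41 to -0.62), and when only the 2 compared groups were fitted (adjusted p = 0.104).

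Whether the transgene acted differently with and without Rorb was tested as an interaction. At P14 it called 0 members upward and 1 downward (Kcnab1), with 0.396% and 1.08% of all genes. At P28 it called 2 upward and 1 downward, with 2.95% and 2.52% of all genes, at a median of 0.31 over the members and 0.03 over all genes. The 3 were Kcna3 (0.87 ± 0.20, adjusted p = 0.0104), Kcnn2 (0.59 ± 0.17, adjusted p = 0.0384) and Kcnab1 (-0.50 ± 0.15, adjusted p = 0.0387). The P28 count moved from 1 to 18 over single mice left out, 18 being reached without Rorb-/-;CrxpNrl replicate 1, and it was 14 with array weights and 1 without replicates 3 and 4. With every array shifted to the same median and with quantile normalization it was 1 upward and 1 downward. Without replicates 3 and 4 Kcnab1 stood at -0.63 (adjusted p = 0.0221), Kcna3 at 0.72 (adjusted p = 0.0931) and Kcnn2 at 0.40 (adjusted p = 0.308). The P28 call of Kcnab1 was lost with the mean of all probe sets (-0.38, adjusted p = 0.238) and without any of 12 single mice (adjusted p = 0.0502 to 0.095). That of Kcna3 was lost when only the 4 groups were fitted (adjusted p = 0.063) and with the replicate block (adjusted p = 0.0695).

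With age, few members were called in +/+, and most of those called without Rorb rose. From P14 to P28 in +/+, 2 members rose and 4 fell, while 5.77% of all genes rose and 7.94% fell. Kcnab3 rose by 0.79 ± 0.18 (adjusted p = 0.00285), or stood at 0.44 (adjusted p = 0.0371) in its probe set without shared sequence. Kcna3, at 5.82, 5.93, 5.63 and 5.60 in P28 +/+, rose by 0.44 ± 0.14 (adjusted p = 0.0302), a call lost without any of 5 single mice (0.37 to 0.44). Kcnj9 read 9.08, 7.39, 9.22 and 8.16 in P28 +/+ and 9.14, 8.94 and 9.18 in P28 +/+;CrxpNrl. Kcnj13 (-0.96 ± 0.27), Kcnj8 (-0.49 ± 0.12), Kcnk2 (the stretch-sensitive channel TREK-1, -0.37 ± 0.11) and Kcnk4 (-0.32 ± 0.11) fell. The Kcnj13 call was lost without P28 +/+ replicate 2 (-0.69) or 4 (-0.86), when only the 2 groups were fitted (adjusted p = 0.0577) and with the replicate block (adjusted p = 0.058). The pigment epithelium list fell in 9 of 11 and the vessel list in 5 of 9 genes, moving with Kcnj13 and Kcnj8, and their part was not tested. In +/+;CrxpNrl 0 rose and 2 fell, while 2.65% of all genes rose and 7.2% fell. Those were Kcnj8 (-0.68 ± 0.13) and Kcnd2 (-0.55 ± 0.15). Blocking there on the replicate number, a pairing the labels do not state, gave 7 higher and 5 lower, and equal array medians gave 2 and 2.

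In Rorb-/- 10 members rose and 2 fell with age, while 6.15% of all genes rose and 8.8% fell. Kcnj9 rose by 2.09 ± 0.52 (adjusted p = 0.00565), from 8.09, 6.17, 6.17 and 6.95 at P14 to 8.58, 8.57, 9.56 and 9.03 at P28. The Kcnj9 mice of the 2 ages did not overlap. The 2 brightest probe sets of Kcnj9 correlated at r = 0.54 over the 31 arrays, so its values hold for the brightest one. Kcnab3 rose by 1.04 ± 0.18 (adjusted p = 0.000134), but its probe set without shared sequence stood at 0.41 and did not pass (adjusted p = 0.052). Kcnc2 rose by 0.97 ± 0.13 (adjusted p = 8.99e-06), Kcnc1 rose by 0.78 ± 0.15 (adjusted p = 0.000539) and Kcna5 rose by 0.77 ± 0.10 (adjusted p = 4.5e-06). The falls were Kcnmb4 (-0.51 ± 0.10) and Kcnq3 (-0.42 ± 0.13). Tested as a difference of the Rorb effect between ages, 2 members passed upward and 0 downward, Kcna5 and Kcnj13, with 1.41% and 1.31% of all genes.

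In Rorb-/-;CrxpNrl 23 members rose and 3 fell with age, or 18 and 2 without P28 replicates 3 and 4, while 13.6% of all genes rose and 15.3% fell. All 10 members that rose in Rorb-/- rose here too (43.5% of the 23), and the 2 comparisons share no mice. Kcnj9 rose by 2.33 ± 0.52 (adjusted p = 0.000933), from 7.34, 5.31, 6.62 and 6.45 to 7.86, 7.51, 10.10 and 9.56, and stood at 1.26 (adjusted p = 0.107) without the 2 mice. Kcnc2 rose by 1.78 ± 0.13 (adjusted p = 1.49e-10) and stood at 1.52 without them. Kcna2 (1.503 ± 0.20), Kcna1 (1.39 ± 0.20), Kcna5 (1.35 ± 0.10), Kcnab3 (1.29 ± 0.18) and Kcna4 (1.21 ± 0.15) rose as well. Without the 2 mice these 5 kept their calls, at 1.09, 0.95, 1.22, 0.79 and 1.09, and Kcnab3 stood at 0.57 in its probe set without shared sequence. Kcnv2 (-1.01 ± 0.29), Kcnj8 (-0.47 ± 0.12) and Kcnj11 (Kir6.2, -0.18 ± 0.06) fell. Without the 2 mice Kcnv2 stood at -0.16 (adjusted p = 0.653), Kcnj8 at -0.44 (adjusted p = 0.0306) and Kcnj11 at -0.21 (adjusted p = 0.0637). In this comparison 6 of 10 ganglion cell genes rose and 1 fell, and 4 of 10 rod genes fell, and their part was not tested.

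**Figure D5:**
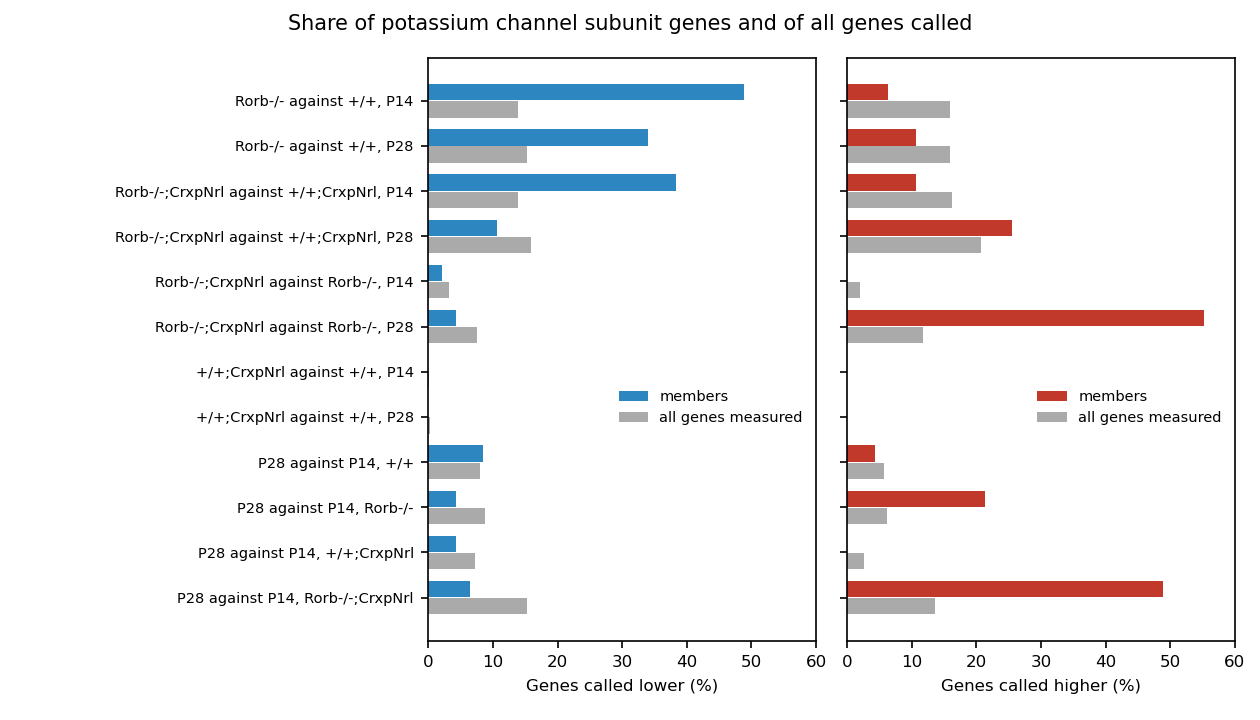
Percent of the 47 members (coloured bars) and of all 18193 genes (grey bars) called lower (left) and higher (right) at adjusted p under 0.05 in 12 comparisons. Members were called lower more often than all genes without Rorb at P14 (48.9% against 13.9%) and higher more often with the transgene in Rorb-/- at P28 (55.3% against 11.7%).

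Genes that act with potassium channels were measured beside the members. Of 14 channel partners, 6 fell and 3 rose in Rorb-/- against +/+ at P14, while 13.9% of all genes fell and 16.0% rose. Kcnip3 (-1.61 ± 0.14) and Kcnip1 (-1.46 ± 0.14), which assist Kv4 channels, and Abcc9 led the falls, and Lrrc38, a gamma subunit of BK channels (1.05 ± 0.11), led the rises. At P28 3 fell, Kcnip1 (-1.57 ± 0.14), Abcc9 (-1.51 ± 0.11) and Kcnip3 (-1.37 ± 0.14), and 4 rose. Of all genes 15.2% fell and 15.9% rose there, so these counts in a list of 14 are not far from those shares. With the transgene in Rorb-/- at P28 6 rose and 0 fell, led by Kcnip1 (0.92 ± 0.14), Lgi1 (0.81 ± 0.19) and Dpp10 (0.78 ± 0.12). Without replicates 3 and 4, 4 rose and 0 fell, with Kcnip1 at 0.55 (adjusted p = 0.00234), Lgi1 at 0.31 (adjusted p = 0.342) and Dpp10 at 0.53 (adjusted p = 0.00837). Of all genes 11.7% rose in this comparison. Kcnip1 and Kcnip3 thus fell in comparisons in which no Kv4 pore gene passed, and Abcc9 fell in comparisons in which Kcnj8 fell.

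Of 7 HCN and CNG channel genes, the rod subunits Cnga1 and Cngb1 fell and the cone subunit Cngb3 rose without Rorb at P14, and 4 did not pass. Cnga1 and Cngb1 rose with the transgene in Rorb-/-, by 2.90 ± 0.44 and 2.37 ± 0.33 at P14. Of 12 measured potassium pump and transporter genes, 5 rose and 2 fell without Rorb at P14, led by the rod exchanger Slc24a1 (-4.05 ± 0.37) and the exchanger gene Slc24a4 (1.18 ± 0.15). In Rorb-/- against +/+ at P14, 13.9% of all genes fell and 16.0% rose. Cnga1, Cngb1, Cngb3 and Slc24a1 also stand in the rod and cone lists above.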

How the data were processed

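The authors' deposited log2 signals of 31 Affymetrix arrays, normalized with RMA per the submitters' processing notes (version not given in the sources used here), were used as given. The array's 45101 probe sets were named from the platform annotation: 34958 had 1 symbol, 932 had several, and 9211 were unnamed here. Each gene was represented by its probe set with the highest mean, which gave 18193 genes, 9010 of them with more than 1 probe set. One mean per group was fitted over all arrays with limma 3.58.1 (R 4.3.3; lmFit, eBayes with a variance trend), with Benjamini-Hochberg adjustment over all genes in each of 15 comparisons. The fit was tested on simulated data, where it recovered 94.7% of genes changed by 1 log2 in Rorb-/- against +/+ at P14. The number of arrays limits the precision.

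The members, gene lists and level rule were chosen with earlier results of these data known. Values in every array are given for the 14 members called with a difference of at least 1 log2 in a comparison of genotypes; Kcnma1, at P14, was added after its values were seen. Other called members are named by size. Same-numbered replicates deviated together (correlation of deviations over 0.1 for every number) in some comparisons. These were Rorb-/- against +/+ at P14 (0.11 to 0.29), +/+;CrxpNrl against +/+ at P28 (0.21 to 0.37) and P28 against P14 of +/+;CrxpNrl (0.23 to 0.30). The labels do not state that equal numbers pair mice, so the main fit had no block and the block is an alternative. Alternatives covered scaling, probe sets, filters, variance model, array weights, blocks and single mice left out. Promoter sequences came from RefSeq (GRCm38.p6). Figures were drawn with matplotlib 3.10.9.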

Additional observations from a re-analysis of the deposited data

Results flagged for a closer look

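A single value far from the rest was sought in 98 sets of 4 values, from 14 genes in the groups of 4 mice. Chance alone gives such a value in about 1 of 20 sets, and 3 were found. The sets share mice and are not independent. Kcnab1 was 9.05 in P28 +/+ replicate 3, below the other 3 mice of its group. Kcnab3 was 6.63 in P14 +/+;CrxpNrl replicate 3, apart from its group. Kcnc2 was 8.10 in P28 Rorb-/- replicate 1, below the other 3 mice.

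In 6 cases the effect of one factor differed between levels of another by a test of the difference. The effect of the transgene differed with Rorb genotype for Kcnab1 at P14 (-0.75) and at P28 (-0.50), and for Kcna3 (0.87) and Kcnn2 (0.59) at P28. The P28 call of Kcnab1 was lost without any of 12 single mice, and that of Kcna3 when only the 4 groups were fitted (adjusted p = 0.063). The effect of Rorb loss differed between the ages for Kcna5 (0.58) and Kcnj13 (1.65). The Kcna5 call was lost without any of 7 single mice and the Kcnj13 call when only those 4 groups were fitted (adjusted p = 0.0568).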

How the results depend on the processing

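No called difference of the 14 members with values in every array changed sign in the alternatives run. Differences not called in the main fit were not checked in this way. Of those, Kcnab3 in Rorb-/-;CrxpNrl against Rorb-/- at P28 went from 0.47 to -0.03 without replicates 3 and 4. All values here are numbers of members called, unless a difference is named. Array weights gave 3 for the transgene in Rorb-/- at P14, 14 for the P28 interaction of Rorb and transgene, 10 for age in +/+ and 4 for age in +/+;CrxpNrl. A fold of at least 2 as well left 7 and 3 for Rorb-/- against +/+ at P14 and P28, 9 and 4 for Rorb-/-;CrxpNrl against +/+;CrxpNrl, 0 and 0 for the transgene in Rorb-/-, 0 for both interactions with the transgene, 0 for age in +/+ and in +/+;CrxpNrl, 2 for age in Rorb-/-, 11 for age in Rorb-/-;CrxpNrl and 1 for the interaction of age and Rorb. Leaving out the dimmest 40% of genes gave 2 for the transgene in Rorb-/- at P14, 3 for age in +/+ and 1 for age in +/+;CrxpNrl. The mean of all probe sets gave 3 and 1 for the transgene in Rorb-/- at P14 and age in +/+;CrxpNrl. Leaving out probe sets with shared sequence gave 0 for the transgene in Rorb-/- at P14 and 0 for the P14 interaction. Kcnab1, the only member called in either, had no probe set left in that setting and was not measured there. Members with a mean of 6 or more gave 2 for age in +/+ and 1 for age in +/+;CrxpNrl, and no level threshold gave 2 for the transgene in Rorb-/- at P14 and 2 for the P14 interaction. Counting in Kcnj10, Kcnj14 and Kcne2 gave 1, 3 and 1 for the transgene in +/+ at P14, in Rorb-/- at P14 and in +/+ at P28. Fitting the compared groups alone gave 14 for the transgene in Rorb-/- at P28, 1 for the P28 interaction, 8 for age in +/+;CrxpNrl and 1 for the interaction of age and Rorb. A shift to the same median gave 4 for age in +/+;CrxpNrl. Without P28 Rorb-/-;CrxpNrl replicates 3 and 4, chosen after seeing the data, there were 11 for the transgene in Rorb-/- and 1 for the interaction. The cause of the other moves was not tested.

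With the replicate block the counts were 27 for Rorb-/- against +/+ at P14, 12 for age in +/+;CrxpNrl, 3 and 18 for the transgene in Rorb-/- at P14 and P28, and 1 for the P28 interaction, and it changed no other count by over 1.5 times. Leaving out each mouse gave 22 to 27 and 18 to 20 for Rorb-/- against +/+ at P14 and P28, 0 to 0 for the transgene in +/+ at both ages, 1 to 2 and 17 to 29 for the transgene in Rorb-/-, 17 to 21 and 14 to 19 for Rorb-/-;CrxpNrl against +/+;CrxpNrl, 1 to 2 and 1 to 18 for the interactions at P14 and P28, and 3 to 8, 9 to 12, 1 to 3 and 20 to 28 for age in +/+, Rorb-/-, +/+;CrxpNrl and Rorb-/-;CrxpNrl. For the interaction of age and Rorb the range was 1 to 4. Called differences of the 14 members with values in every array kept the call in 1372 of 1499 values under alternatives and lost it in 127. Depth in the sense of signal limits the members near the level of 5, where arrays hold many dim probe sets.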

Other observations

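Among the 26 potassium channel genes below the level of 5, Kcng1, a silent Kv subunit like Kcng4, stood out in 1 group. It read 4.42, 5.29, 5.15 and 5.23 in P14 Rorb-/-, all above every other mouse, and its means in the other 7 groups were 3.53 to 3.89. Those lie below the arrays' lower quartiles (4.26 to 4.34), where a signal above background was not shown, so no size of the difference is given. Kcnq5, a subunit of the M current, had group means of 4.36 to 5.23, just above those quartiles, and was called higher by the limma fit in Rorb-/- against +/+ at P14 and in Rorb-/-;CrxpNrl against +/+;CrxpNrl at P28. These genes were chosen after their values were seen.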
